A study of Rattus norvegicus with 6 samples.

Results

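Pou1f1, Esr1 and Drd2 encode 3 proteins that set how pituitary lactotrophs make and release prolactin, and their transcripts were looked up in GH3 cells given thyrotropin-releasing hormone (TRH). They were chosen by Ensembl gene identifier: ENSRNOG00000000715 for Pou1f1, ENSRNOG00000019358 for Esr1 and ENSRNOG00000008428 for Drd2. Of these 3 identifiers, 2 had a row among the 18413 genes of the count table, those of Pou1f1 and Esr1. The identifier of Drd2 is not in the table, so no level, limit or comparison is given for it. Every row of the table reached a count of at least 1 in some library, so a gene without any counts would also lack a row. An undetected transcript and an identifier that was not used cannot be told apart here. An identifier without a row is not the same as a measured 0. The names were supplied with the identifiers. No table used here pairs identifiers with names, so the names were not checked independently, and hormone genes and markers of other cell types are not analysed here. Among lactotroph markers, the labelled cell type could be set only against Pou1f1 and Esr1, and both had counts in all 6 libraries. Each library had counts for 16073 to 16346 of the 18413 genes, so having counts says little about cell type.

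GH3 is a wild-type cell line from a rat pituitary tumour that makes growth hormone and prolactin. The cells of all 6 libraries were kept in F10 medium with 15% horse serum, 2.5% fetal bovine serum and antibiotics. The groups were 3 control libraries and 3 libraries from cells treated with 100 nM TRH, and the series asks which messenger RNAs differ between them. The sources used here do not state how long TRH was given. GH3 is 1 tumour line and not a sample of the normal gland. Nothing in the labels says whether libraries of a group came from different cultures, so every p-value below reflects only the spread of these libraries, which may be technical.

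TRH, a peptide of the hypothalamus, binds a Gq-coupled receptor, raises calcium in lactotrophs and thyrotrophs, and drives prolactin and thyrotropin release. Pou1f1, also called Pit-1, is the POU homeodomain transcription factor that specifies lactotrophs, somatotrophs and thyrotrophs and binds the prolactin and growth hormone promoters. Esr1 encodes oestrogen receptor alpha, a ligand-activated nuclear receptor that raises lactotroph growth and, acting with Pou1f1, prolactin transcription. Drd2 encodes the dopamine D2 receptor, the Gi-coupled receptor through which hypothalamic dopamine holds prolactin release down. One factor thus gives the cell its identity, 1 receptor adds the oestrogen signal and 1 receptor carries the main inhibitory signal.

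Pou1f1 was an abundant transcript in every library, whereas Esr1 lay near the middle of the genes tested. Levels are compared between genes as TPM, the authors' length-scaled unit with the same total in every library, which divides counts by gene length. Averaged over the 6 libraries, Pou1f1 lay at the 96.4th percentile of the 14050 genes tested and Esr1 at the 56.4th. By TPM, Pou1f1 ranked between 311 and 654 among all 18413 genes, depending on the library, and Esr1 between 5463 and 6982. The Pou1f1 level was 22.4, 20.7 and 15.2 times the Esr1 level in control replicates 1, 2 and 3. With TRH the ratio was 12.1, 14.1 and 20.7 in replicates 1, 2 and 3. Pou1f1 was thus the higher transcript in 6 of 6 libraries, and the control and TRH ratios overlapped. The within-library difference of log2(TPM + 0.1) was 4.09 ± 0.36 (SD, n = 6; two-sided exact sign-flip permutation test, p = 0.03125, the smallest that 6 libraries allow). This p follows from Pou1f1 being the higher in 6 of 6 libraries, so it adds no separate support for that order. Pou1f1 and Esr1 were the single pair that could be compared, since Drd2 had no row.

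Pou1f1 (gene length 2356 bases) was highest in control replicate 1. Its TPM was 476, 330 and 318 in control replicates 1, 2 and 3, and 289, 312 and 265 in TRH replicates 1, 2 and 3. On this scale all TRH libraries lay below all controls, although the lowest control and the highest TRH library were close. Groups did not overlap in TPM for 16.1% of the 14050 genes tested, and for 11.9% with TRH the lower group. The same transcript in CPM, the count as a share of the library after TMM scaling, was 660, 496 and 448 in controls and 419, 449 and 430 with TRH. Here the groups overlapped, since TRH replicate 2 exceeded control replicate 3 slightly. Non-overlap in CPM occurred in 17% of genes tested, and in 10.2% with TRH lower. As a share of the library's counts, before any scaling, Pou1f1 took 0.0455% in control replicate 3 and 0.0453% in TRH replicate 2, so the groups just failed to overlap. How many genes tested lacked overlap on this unscaled measure was not counted, so it is not read as particular to Pou1f1. TMM factors of 1.014 and 1.009 for these 2 libraries turned their order in CPM. Separation of the Pou1f1 groups therefore depended on the scale.

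**Figure D1:**
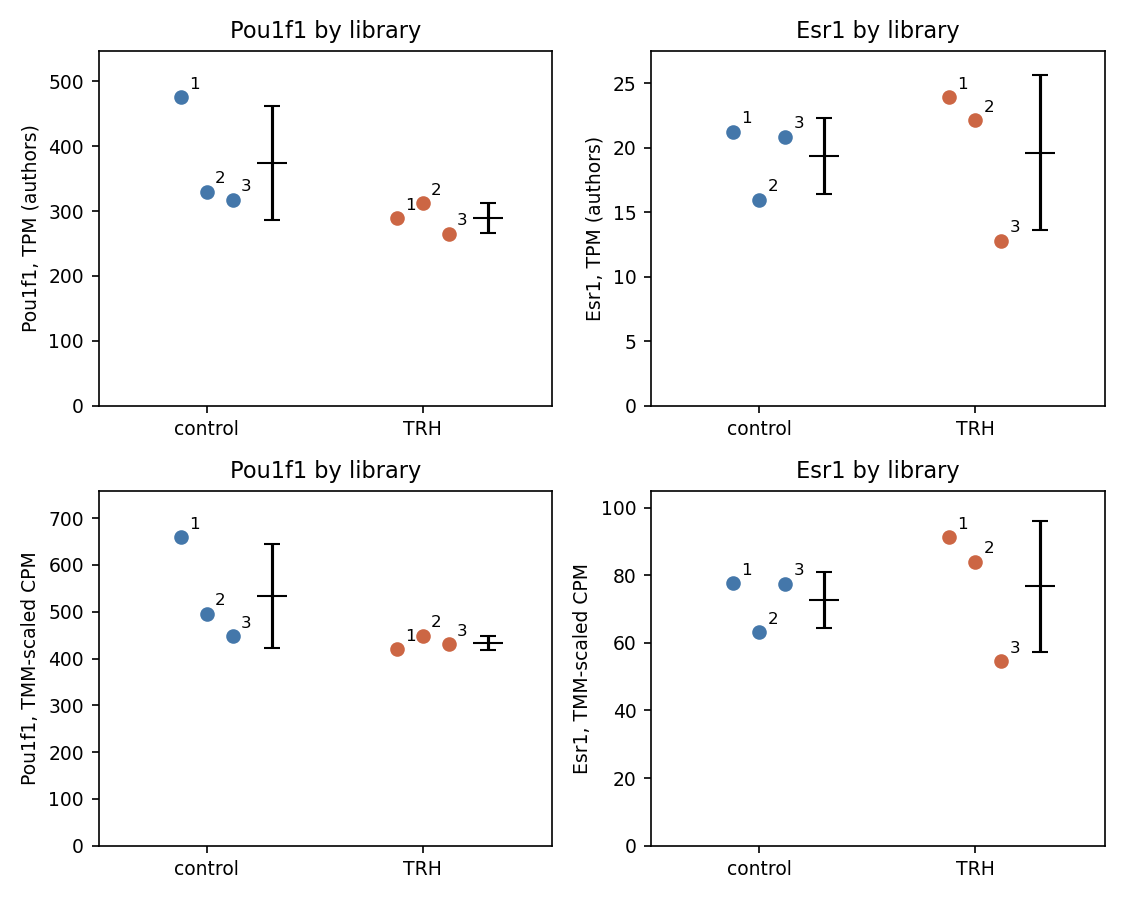
Levels of Pou1f1 (left) and Esr1 (right) in each library, as the authors' TPM (top) and as TMM-scaled CPM (bottom), on linear axes from 0; numbers beside points are replicate numbers, and the black bar gives the mean and SD of 3 libraries. Control replicate 1 stands above the other Pou1f1 values at 476 TPM, and TRH replicate 3 stands below the other Esr1 values at 12.8 TPM.

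No change of Pou1f1 with TRH passed the test. Controls averaged 374 ± 87.9 TPM and TRH libraries 289 ± 23.2 TPM (SD, n = 3 each), or 535 ± 111 CPM and 433 ± 15.1 CPM. edgeR's quasi-likelihood test put the log2 fold change at -0.30 (SE 0.14, 95% interval -0.63 to 0.02, Benjamini-Hochberg adjusted p = 0.562). As a fold this is 0.810, with an interval from 0.646 to 1.02. In this fit a fall below 0.646 of the control level lay outside the interval. The lower limit depended on the fit and reached 0.598 in edgeR without TRH replicate 2. Of the 9 ratios of 1 TRH library to 1 control in CPM, 8 were below 1. They ran from 0.636 to 1.002. These ratios reuse the same 6 libraries, so they are not independent, and how many genes had as many in 1 direction was not counted. DESeq2's Wald test gave a log2 fold change of -0.29 and an adjusted p of 0.527.

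The size of the Pou1f1 difference rested on control replicate 1. That library held 1.47 times the mean TPM of the other controls and 1.40 times their mean CPM. Without it edgeR gave a log2 value of -0.12 (SE 0.08, 95% interval -0.31 to 0.07, adjusted p = 0.965), a fold of 0.917. Without control replicate 3, the edgeR value was -0.40 (SE 0.13, 95% interval -0.71 to -0.09, adjusted p = 0.575). That interval of this single gene excludes 0, but the change did not pass adjustment over all genes. The direction stayed the same when any single library was left out, with values from -0.40 to -0.12. Counting error was far smaller than this spread. Pou1f1 had 28787 counts in control replicate 1 (95% Poisson interval 28455 to 29121) and 19137 to 22663 in the others, and counting alone gives a coefficient of variation of 0.643% in controls. The observed coefficient of variation of CPM was 20.8% in controls and 3.48% with TRH. Intervals of this kind cover counting error only. Because this is bulk RNA, fewer cells making a transcript and less RNA per cell cannot be told apart.

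Esr1 (gene length 6207 bases) varied most among the TRH libraries. Its TPM was 21.2, 15.97 and 20.9 in control replicates 1, 2 and 3, and 23.9, 22.2 and 12.8 in TRH replicates 1, 2 and 3. TRH thus held the 2 highest values and also the lowest, and the groups overlapped. In CPM the controls gave 77.6, 63.2 and 77.6 and the TRH libraries 91.4, 84.1 and 54.7, with the same libraries at the extremes. Controls averaged 19.4 ± 2.94 TPM and TRH libraries 19.6 ± 5.98 TPM (SD, n = 3 each). The Esr1 counts, 2431 to 4739 per library, give a counting coefficient of variation of 1.65% with TRH, against an observed 25.3% in CPM.

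Esr1 showed no change with TRH that passed the test, and its direction was not settled. edgeR put it at 0.08 on the log2 scale (SE 0.19, 95% interval -0.36 to 0.51, adjusted p = 0.901). As a fold this is 1.05, with an interval from 0.779 to 1.43, so a change of 2-fold in either direction lay outside the interval, while a rise of up to 1.43-fold or a fall to 0.779 of the control level lay within it. Of the 9 CPM ratios of a TRH library to a control, again not independent, 6 were above 1 and 3 below. With limma on log2(TPM + 1) the sign turned, at -0.017 (adjusted p = 0.986), although mean TPM was slightly higher with TRH. Without TRH replicate 3, which held 0.555 times the mean TPM of the other TRH libraries, the edgeR value was 0.26 (SE 0.12, 95% interval -0.02 to 0.55, adjusted p = 0.776). The value was -0.055 when TRH replicate 1 was left out and -0.017 for control replicate 2. It stayed above 0 for the rest, at 0.12 for control replicate 1, 0.14 for control replicate 3 and 0.0051 for TRH replicate 2.

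Set against all genes tested, neither transcript stood out. At an adjusted p under 0.05, edgeR called 0 of the 14050 genes (0% called), with 1263 (8.99%) at an unadjusted p under 0.05, and limma voom called 0. DESeq2 called 119 of 11985 genes (0.993%), and neither Pou1f1 nor Esr1 was among them. Neither reached an unadjusted p under 0.05 in edgeR. A p as small as that of Pou1f1 occurred in 11.3% of genes and a log2 fold change as large in either direction in 22.9%. For Esr1 these shares were 77.8% and 73.8%.

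**Figure D2:**
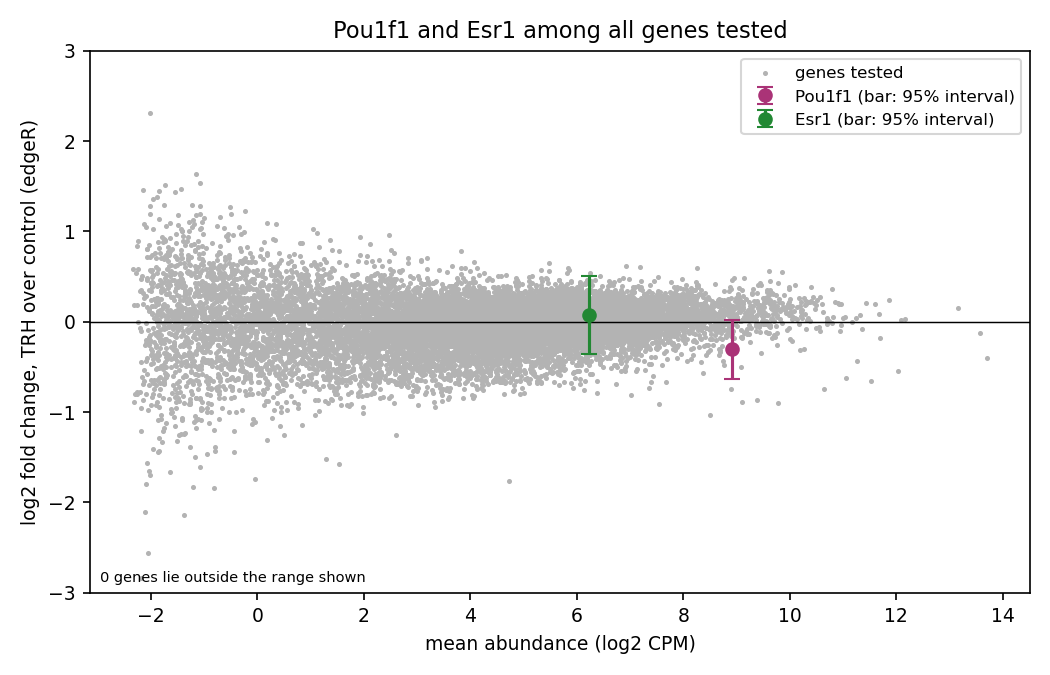
Log2 fold change, TRH over control, against mean abundance in log2 CPM for the 14050 genes tested in edgeR (grey), with Pou1f1 and Esr1 and their 95% intervals in colour. Both intervals include 0, and Pou1f1 at -0.30 lies lower than Esr1 at 0.08.

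Whether Pou1f1 and Esr1 changed differently was tested within libraries, where library scaling cancels. Trends with gene length that differ between libraries (below) do not cancel, since the 2 genes differ in length. No version of this comparison adjusted for such trends was run. The difference of log2(TPM + 0.1), Pou1f1 minus Esr1, averaged 4.25 ± 0.29 over controls and 3.92 ± 0.40 over TRH libraries (SD, n = 3 each). The difference between groups was -0.33, less than the spread in the TRH group (exact permutation test, two-sided, p = 0.3, which 3 against 3 cannot bring below 0.1). Without TRH replicate 3 it was -0.55, and without TRH replicate 1 it was -0.17. TRH replicate 3 and control replicate 2 had the same ratio of the 2 transcripts, 20.7.

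Long genes as a group were low in the libraries where Esr1 was lowest, but were not highest where Esr1 was highest. When the genes tested were ordered by length and divided into 5 groups of equal size, Esr1 fell in group 5 (3866 to 29464 bases) and Pou1f1 in group 3 (1852 to 2614 bases). Deviations are of log2 CPM from a gene's own mean. In TRH replicate 3 the median of group 5 deviated by -0.22 and Esr1 by -0.43. In control replicate 2 the group 5 median was -0.09 and Esr1 was at -0.22. In TRH replicates 1 and 2 the group median was 0.04 and 0.03, and Esr1 was at 0.31 and 0.19. The highest group medians, 0.18 in control replicate 1 and 0.12 in control replicate 3, stood beside Esr1 deviations of 0.08 and 0.07. The medians of group 3 lay between 0.00 and 0.02 in every library, while Pou1f1 ran from -0.19 in TRH replicate 1 to 0.47 in control replicate 1. In control replicate 1, Pou1f1 thus lay well above the median of genes of its own length group.

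With offsets that centre each library at each gene length, Esr1 deviated by -0.13, -0.11 and -0.08 in control replicates 1, 2 and 3. The TRH replicates 1, 2 and 3 were then at 0.28, 0.16 and -0.12. TRH replicate 3 joined the controls on this scale, and the groups still overlapped. With these offsets edgeR gave Esr1 a log2 fold change of 0.23 (SE 0.11, 95% interval -0.02 to 0.48, adjusted p = 0.477). For Pou1f1 the offsets changed little, at -0.27 (SE 0.13, adjusted p = 0.477). The part of gene length in the Esr1 values was not tested further. Such offsets would take out any length-related response to TRH as well.

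**Figure D3:**
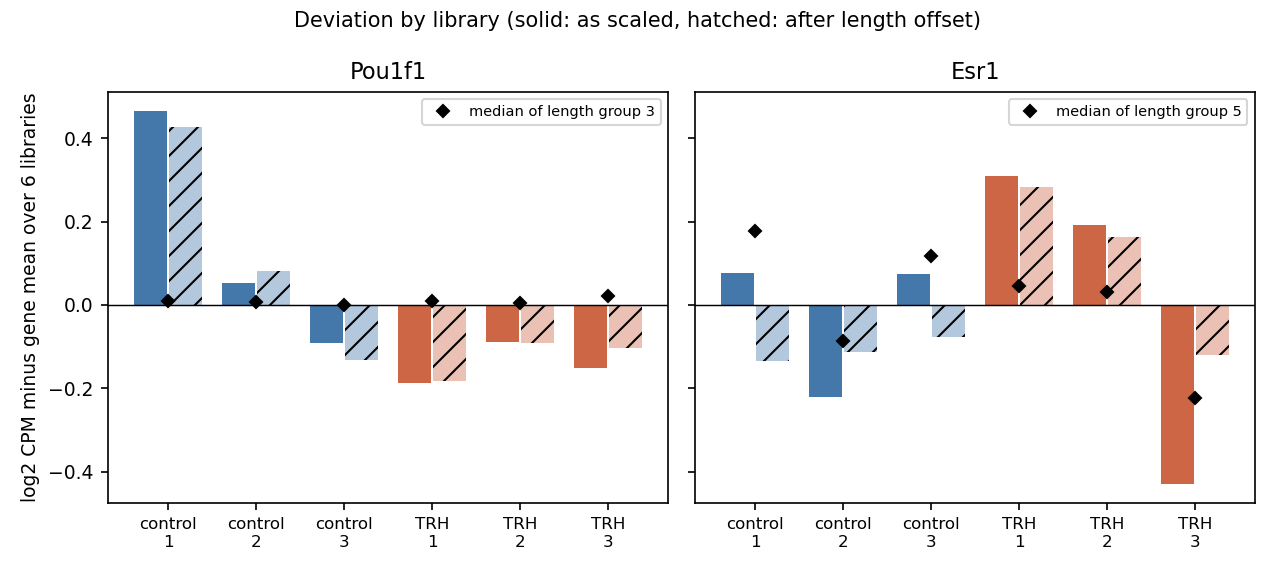
Deviation of log2 CPM from the gene's mean over 6 libraries for Pou1f1 (left) and Esr1 (right), by library; solid bars are TMM-scaled, hatched bars are after length offsets, and diamonds are the median of all genes in the same length group. Esr1 in TRH replicate 3 moves from -0.43 to -0.12 with the offsets, while Pou1f1 in control replicate 1 moves from 0.47 to 0.43.

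Control replicate 1 and TRH replicate 3 had the most opposed length trends, and a fit without both had 2 libraries in each group. Pou1f1 then had an edgeR log2 fold change of -0.12 (95% interval -0.32 to 0.08, adjusted p = 0.767). Esr1 had 0.32 (SE 0.12, 95% interval 0.04 to 0.59, edgeR adjusted p = 0.672), which did not pass adjustment over all genes although the interval of this single gene excludes 0. In the CPM scaled over all 6 libraries, the remaining controls are at 63.2 and 77.6 and the remaining TRH libraries at 91.4 and 84.1, which do not overlap. The fit itself scaled the 4 libraries anew. That separation arises from removing the lowest TRH value, so it is a description of the 4 libraries left. The share of genes tested without overlap in these 4 libraries was not counted, so the separation is not read as particular to Esr1.

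**Figure D4:**
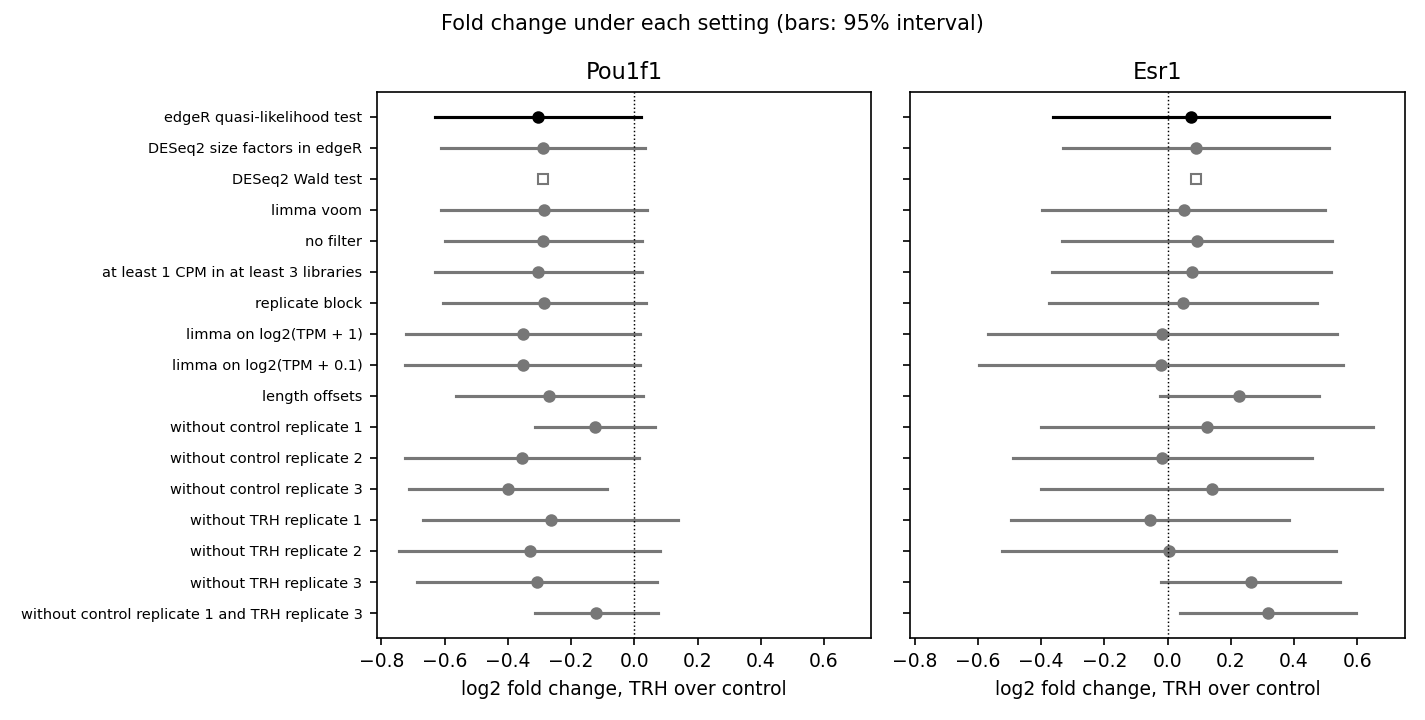
Log2 fold change, TRH over control, of Pou1f1 (left) and Esr1 (right) in the main edgeR fit (black, top) and under each of 16 alternatives (grey); bars are 95% intervals, and the open square is DESeq2, drawn without an interval. All Pou1f1 values lie below 0, from -0.40 to -0.12, while Esr1 values lie on both sides of 0, from -0.055 to 0.32.

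Each transcript was also matched to the gene whose library profile was most like its own. Likeness was the root mean square difference, over the 6 libraries, of log2 CPM after subtracting each gene's mean. For Pou1f1 the nearest was ENSRNOG00000050104, at a difference of 0.029, against a median of 0.29 over all genes tested. It is a much less abundant gene, at 5.48, 4.16 and 3.87 CPM in controls and 3.66, 3.92 and 3.73 CPM with TRH, again highest in control replicate 1. For Esr1 the nearest was ENSRNOG00000017523, at a difference of 0.046 against a median of 0.32. Its level was 41.6, 33.4 and 44.3 CPM in controls and 47.8, 46.5 and 28.8 CPM with TRH, lowest in TRH replicate 3 as Esr1 was. Both were picked as the closest of the genes tested, so their small differences and shared extremes follow from that choice. The edgeR adjusted p for their own change with TRH was 0.664 and 0.954.

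Counts per gene do not separate transcript forms. Rat pituitary is known to make splice forms of Pou1f1 and a truncated oestrogen receptor product from an internal start in Esr1, and a change in their proportions could not be seen in these values. How the deposited gene lengths of 2356 and 6207 bases were taken is not stated in the sources used here, and the TPM of each gene scales with that length.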

How the data were processed

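RNA of 3 control and 3 TRH-treated GH3 samples was sequenced on an Illumina XTen instrument, per the labels' protocols. HISAT2 and bedtools are named, without role or order, per the submitters' processing notes. The genome build, annotation, strand setting and treatment of overlapping genes were not given in the sources used here. Raw counts per Ensembl gene were deposited. A second deposited table holds the same counts with FPKM, TPM and a length for each gene, and the authors' TPM are their FPKM rescaled to 1 total per library. Library totals ran from 43504159 to 52134239 counts. Every replicate pair differed by more than sampling noise (chi-square 13.7 to 110.0 per degree of freedom).

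Counts were fitted with edgeR 4.0.16 (TMM, filterByExpr, quasi-likelihood test, Benjamini-Hochberg adjustment over 14050 genes, threshold 0.05, R 4.3.3). Standard errors came from the coefficient and its F value. Alternatives were DESeq2 1.42.0 (independent filtering at 0.05), limma 3.58.1 on voom weights and on log2(TPM + 1) and log2(TPM + 0.1), other scaling and filters, a replicate block, loess length offsets (span 0.5) and leaving out libraries. The fits were tested on simulated data. Exact tests over samples used Python 3.11.15.

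The genes, lists and alternatives were chosen with earlier results of these data known. The genes named are these 3 and, by a second rule, the nearest library profile of each that passed the filter (Pou1f1 and Esr1). Lists of lactotroph regulators and cell markers by symbol are not analysed here, since the RefSeq table (GRCr8) pairs 0 of its 47357 rows with an Ensembl identifier.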

Additional observations from a re-analysis of the deposited data

How the results depend on the processing

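Over 16 alternatives, Pou1f1 kept its direction and did not pass adjustment in any (log2 fold change -0.40 to -0.12, adjusted p 0.404 to 0.965). Esr1 passed in none of its 16 (adjusted p 0.477 to 0.996), but its sign turned in limma fits of log2(TPM + 1) (-0.017) and log2(TPM + 0.1) (-0.020), and leaving out single libraries gave -0.055 to 0.26. Over all genes, edgeR called 0 (1263 had an unadjusted p under 0.05). This count was 119 in DESeq2's Wald test, 0 to 1 with single libraries left out (1 without TRH replicate 3), and 1 without control replicate 1 and TRH replicate 3 together. Genes at an unadjusted p under 0.05 numbered 769 without control replicate 1 and 1786 without control replicate 2, the extremes of these 6 fits. The Pou1f1 minus Esr1 difference of 4.09 was 4.01 to 4.19 with single libraries left out. Its exact p was then 0.0625, the smallest that 5 libraries allow, so it cannot pass by construction. No alternative was run for Drd2, which had no row.

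Under a replicate block, with the number as an additive term, edgeR gave -0.28 for Pou1f1 (adjusted p = 0.602), 0.05 for Esr1 (adjusted p = 0.953) and 0 genes called, with 1232 at an unadjusted p under 0.05. The labels tie equal numbers to nothing shared. For this check, deviations were taken from each gene's mean within its own group. Between a control and a TRH library of equal number they correlated at 0.24, -0.20 and -0.12 for numbers 1, 2 and 3. Pairs of unequal number ran from -0.29 (control 2 with TRH 1) to 0.38 (control 2 with TRH 3).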
